A study of Mus musculus with 6 samples.

Results

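Gained regions far from genes are stretches of open chromatin that were called in all 3 Chd4KO libraries of mouse β-cells and in none of the 3 control libraries, and that lie more than 50 kb from the nearest protein-coding gene. Accessible DNA was cut by the Tn5 transposase (ATAC-seq), and the reads gave 1 list of narrow peaks per library. Peaks of the 6 lists were joined into regions wherever they shared at least 1 bp, and autosomal regions were kept if they met the call pattern and the distance rule. This left 3595 members of 156745 regions in all. They were 13.6% of the 26484 autosomal regions that lie more than 50 kb from a gene (far regions), while 10.3% of all 152493 autosomal regions had the gained pattern. Members were selected on the calls themselves, so the peak values given for them below are a description, and no test of those values was made.

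The Chd4KO group and the control group had 3 libraries each, numbered 1 to 3. All 6 came from tamoxifen-treated mice whose islets were dispersed and whose mature β-cells were sorted for the fluorescent protein Tomato. The Chd4KO mice are named Chd4Db in the series' design text. The sources used here do not give the strain, sex or age of the mice, the driver of the recombinase or any pooling of animals. A p-value between libraries therefore sets a difference against the scatter among these 6 samples alone, and that scatter may be technical. Between 27000 and 80000 cells were collected, between 14000 and 45000 nuclei entered tagmentation, and fragments above 600 bp were excluded. Peak lists hold no measure of the Chd4 transcript or protein, so the genotype labels were not checked here. All 10 β-cell genes looked up, among them Ins1, Ins2, Pdx1 and Mafa, had a peak within 1 kb of their span in every library. Gcg, Ppy, Prss2, Cpa1, Ctrb1, Amy2b, Cdh5, Cd68 and Adgre1, markers of α-, PP, acinar, endothelial and myeloid cells, had none in any library. The 4 duct and the 4 mesenchymal genes looked up had a peak in every library, as did 3 of 4 endothelial and 2 of 4 leukocyte genes and Irx1, Irx2 and Hhex, factors of other islet cells. Sst, the somatostatin gene of δ-cells, had a peak in Chd4KO library 2 and in control library 3. Of 6 acinar genes, 2, 2 and 2 had a peak in Chd4KO libraries 1 to 3, against 2, 1 and 2 in the controls. The part of other cell types in the results was not tested.

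Chd4 is the helicase that moves nucleosomes in the NuRD complex, which also carries histone deacetylases and is best known for closing enhancers and promoters. Distal enhancers are stretches of DNA between genes that bind transcription factors and can act on a promoter over long distances along the chromosome. Large intervals without protein-coding genes hold long non-coding RNA (lncRNA) genes, microRNA genes, enhancers of developmental genes and many copies of transposable elements.

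Sequence could be read for those members that lie on the start of an annotated lncRNA gene or on a microRNA, and 5 lncRNA starts are shown because they carry strong peaks or repeated letters. Each is the RefSeq window from 250 bases before to 50 after the start in GRCm38.p6, the assembly that mm10 names, printed 5′ to 3′ on the strand of the gene. Positions are counted from 1 at the first base printed. Capitals mark the stretch from 10 bases before the first to 10 after the last of the 3 Chd4KO peak summits. Gm42321 and Gm42018 were the windows whose peaks ranked highest by the median percentile of −log10 q in the Chd4KO lists, Gm35888 and Gm30032 lie in intervals rich in members, and Gm15389 holds the most copies of a repeated word, together with Gm35888.
Gm42321, chr4:131710491-131710790, minus strand: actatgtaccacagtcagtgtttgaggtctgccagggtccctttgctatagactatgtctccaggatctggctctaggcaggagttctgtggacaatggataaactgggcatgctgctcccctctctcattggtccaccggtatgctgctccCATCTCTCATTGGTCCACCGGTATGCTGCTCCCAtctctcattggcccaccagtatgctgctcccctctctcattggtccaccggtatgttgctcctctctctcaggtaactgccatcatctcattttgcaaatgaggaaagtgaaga
Gm42018, chr5:119978302-119978601, plus strand: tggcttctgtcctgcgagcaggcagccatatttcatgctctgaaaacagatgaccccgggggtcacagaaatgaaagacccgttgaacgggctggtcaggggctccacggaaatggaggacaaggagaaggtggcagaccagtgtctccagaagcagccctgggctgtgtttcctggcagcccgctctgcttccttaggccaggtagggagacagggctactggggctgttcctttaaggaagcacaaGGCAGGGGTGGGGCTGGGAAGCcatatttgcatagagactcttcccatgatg
Gm35888, chr2:178850373-178850672, plus strand: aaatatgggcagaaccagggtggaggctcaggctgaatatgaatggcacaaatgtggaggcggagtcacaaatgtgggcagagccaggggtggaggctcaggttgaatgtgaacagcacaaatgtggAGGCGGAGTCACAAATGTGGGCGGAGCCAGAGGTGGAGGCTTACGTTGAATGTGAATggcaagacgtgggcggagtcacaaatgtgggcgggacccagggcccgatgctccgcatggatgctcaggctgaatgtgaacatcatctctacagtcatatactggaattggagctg
Gm30032, chr5:112120864-112121163, minus strand: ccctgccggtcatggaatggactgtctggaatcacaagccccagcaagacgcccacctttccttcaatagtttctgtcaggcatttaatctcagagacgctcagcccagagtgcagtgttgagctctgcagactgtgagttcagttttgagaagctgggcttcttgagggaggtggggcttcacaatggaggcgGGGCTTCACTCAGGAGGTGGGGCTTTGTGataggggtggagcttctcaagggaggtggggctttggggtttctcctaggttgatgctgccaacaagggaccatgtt
Gm15389, chr1:107686750-107687049, plus strand: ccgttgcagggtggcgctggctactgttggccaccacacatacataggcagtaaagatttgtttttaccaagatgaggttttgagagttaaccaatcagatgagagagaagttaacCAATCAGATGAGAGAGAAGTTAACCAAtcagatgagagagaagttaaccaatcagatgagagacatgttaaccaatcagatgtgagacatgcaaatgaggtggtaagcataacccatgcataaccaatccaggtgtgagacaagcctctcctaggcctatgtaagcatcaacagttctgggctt

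The Gm42321 window lies between Matn1 and Ptpru. Its member had a fold enrichment over the peak caller's background of 34.99, 35.6 and 31.3 in Chd4KO libraries 1, 2 and 3, and no peak in any control library. The word ATGCTGCTCC stands in this window 4 times, 32 bases apart, and the pentamer CCAAT stands in it 4 times when both strands are read. Gm42018, between the heart and limb regulator Tbx5 and Rbm19, had fold enrichments of 22.5, 23.4 and 19.9 in the Chd4KO libraries, with summits at positions 260, 259 and 260 of the window. Its letters hold no such repeat.

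Gm35888 starts between Cdh26 and 4930591A17Rik, and its member had fold enrichments of 29.6, 27.6 and 17.3 in Chd4KO libraries 1, 2 and 3. The word CACAAATGTG stands there 5 times, with 20 to 67 bases from copy to copy. Gm30032, between Mn1 and Cryba4, carries GGAGGTGGGG 3 times at a spacing of 38 bases, and its member was weaker, at 8.94, 10.2 and 4.27. Gm15389, between Serpinb8 and Cdh7, had values of 10.9, 8.99 and 14.6. In its window GTTAACCAAT is repeated 5 times at a spacing of 24 bases, and CAGATG, the E-box that Neurod1 can bind, follows each copy at positions 97, 121, 145, 169 and 193.

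These repeats were noticed when the letters were read and were then counted over all windows of the same length. A window was counted if any word of 10 bases occurred in it at least 3 times on the same strand, without overlap between copies. Of the 61 lncRNA windows under members, 10 held such a repeat (16.4%, Wilson 95% interval 9.16% to 27.6%). That compares with 11 of the 326 windows under far regions called in all 6 libraries (3.37%, interval 1.89% to 5.94%) and with 3.09% of all 11311 lncRNA windows on autosomes. Windows under gained regions inside genes or within 50 kb of them, which are not members, gave 15 of 122 (12.3%). Windows under regions with the same location that were called in all 6 libraries gave 43 of 2142 (2.01%). The 10 windows with a repeat belong to 9 members, and the intervals cover counting error only.

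CCAAT, the box bound by the factor NF-Y, was counted after it had been seen in several repeats. At least 3 copies on either strand stood in 10 of the 61 windows under members (16.4%), in 5 of 326 under far regions called in all 6 libraries (1.53%) and in 2.34% of all lncRNA windows. Under gained regions in or near genes the count was 15 of 122 windows (12.3%), against 63 of 2142 (2.94%) under regions there that were called in all 6 libraries. Gm15389 held 6 copies, and Gm42321, Gm36567, Gm41326, Gm46262 and 1 of the 2 windows of Gm31415 held 4. The windows of Gm42321, Gm15389, Gm41326 and Gm46262 were also counted for a repeat, and in Gm15389 and Gm41326 the repeated word contains CCAAT. The count of CCAAT is thus not independent of the count of repeats. The median GC content was 50.0% in members' windows, 48.8% in windows under far regions called in all 6 libraries and 48.3% over all windows. Near genes it was 49.0% under gained regions and 59.3% under regions called in all 6 libraries. Windows of 1 gene and of neighbouring genes can overlap, and a match of letters is a description, not a binding site.

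Motifs of islet factors were also counted in these windows. With 61 windows under members the counts were small, and the differences in share were not tested. Read on both strands, the forkhead motif TGTTTAC stood in 2 of 61 (3.28%) against 28 of 326 (8.59%) under far regions called in all 6 libraries and 4.91% of all windows. The homeodomain core TAATTA gave 4.92% against 9.20% and 6.67%, and CAGATG gave 14.8% against 18.1% and 21.9%. The half-site of nuclear factor I, TTGGCA, gave 9.84% against 16.9% and 15.9%, and the AP-1 motif TGANTCA, which shares letters with the Maf motif TGCTGANTC, gave 9.84% against 7.98% and 9.25%. The Hnf1 motif GTTAATNAT stood in 2 windows (3.28%), against 2.45% and 0.964%. Single windows (1.64%) held the CTCF core AGGGGGCGC, against 0.307% and 0.416%, or the Rfx half-site GTTGCCAT, against 1.84% and 1.65%. None held the Maf motif, against 1.53% and 1.58%, or the cAMP response element TGACGTCA, against 1.23% and 0.990%. No genome was used, so the letters of the other members were not searched.

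One member covers a microRNA. The region chr7:61683080-61683436, 569.4 kb from the nearest protein-coding gene and between Gm51483 and Ndn, an imprinted gene of neurons, contains the whole hairpin of Mir344d-1 at chr7:61683124-61683192 on the minus strand. Its 2 mature products are shown 5′ to 3′ with the seed, bases 2 to 8, in capitals, and their seeds differ.
mmu-miR-344d-3p: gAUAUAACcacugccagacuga
mmu-miR-344d-1-5p: aGUCAGGCugcuggcuauacacca
The fold enrichment there was 4.47 in Chd4KO library 1, 4.57 in library 2 and 6.40 in library 3. Against the members' medians, given below, these values were lower in libraries 1 and 2 and slightly higher in library 3.

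The 3595 gained far regions stood against 571 far regions with the reverse pattern, called in all 3 control and no Chd4KO library, which is 2.16% of far regions. The ratio of gained to lost was 6.30, with a 95% interval for counting error of 5.76 to 6.88. The share gained, 13.6%, had an interval of 13.2% to 14.0%. The Chd4KO lists were longer, with 122730, 124125 and 119088 peaks in libraries 1 to 3, against 100109, 110693 and 101289 in the controls. With only the 50000 strongest peaks of each library, 1334 far regions were gained and the ratio was 2.36. Without control library 1 the ratio was 4.14. The depth of the libraries is unknown, because the lists hold no read counts. A region that is open in more of the nuclei and one that is more open in each nucleus cannot be told apart in pooled cells.

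Far peaks were more numerous in every Chd4KO library than in any control library. Chd4KO libraries 1, 2 and 3 had 20035, 20186 and 20761 far peaks, or 16.8%, 16.7% and 17.9% of their autosomal peaks. Control libraries had 14312, 17277 and 14964, or 14.7%, 16.03% and 15.2%. The groups did not overlap in either measure, although control library 2 came closest to the Chd4KO group. Once gained and lost regions were set aside, 16423, 16583 and 17162 far peaks remained in the Chd4KO libraries, against 13740, 16705 and 14390 in the controls, and there the groups overlapped.

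The rule was also applied to the calls of 5 libraries at a time. The call in the sixth, which the rule had not used, was then read. Regions and their distances to genes came from joining all the peak lists, with that of the held-out library included. The peaks of that library had thus helped to set the regions on which its call was read. Far regions called in the other 2 Chd4KO libraries and in no control were called in the held-out Chd4KO library in 86.6% of 4152 cases for library 1, 87.1% of 4127 for library 2 and 86.3% of 4164 for library 3. Far regions called in any other set of 2 of the 5 libraries were called there in 23.2%, 24.7% and 27.3% of cases. With a control library held out, gained far regions were called in 4.92% of 3781 cases for control 1, 17.8% of 4371 for control 2 and 5.15% of 3790 for control 3. Far regions called by another set of 3 of the 5 were called in 52.5%, 81.2% and 59.8%. Control library 2, which had the longest list of its group, thus called more of these regions than the other 2 controls.

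**Figure D1:**
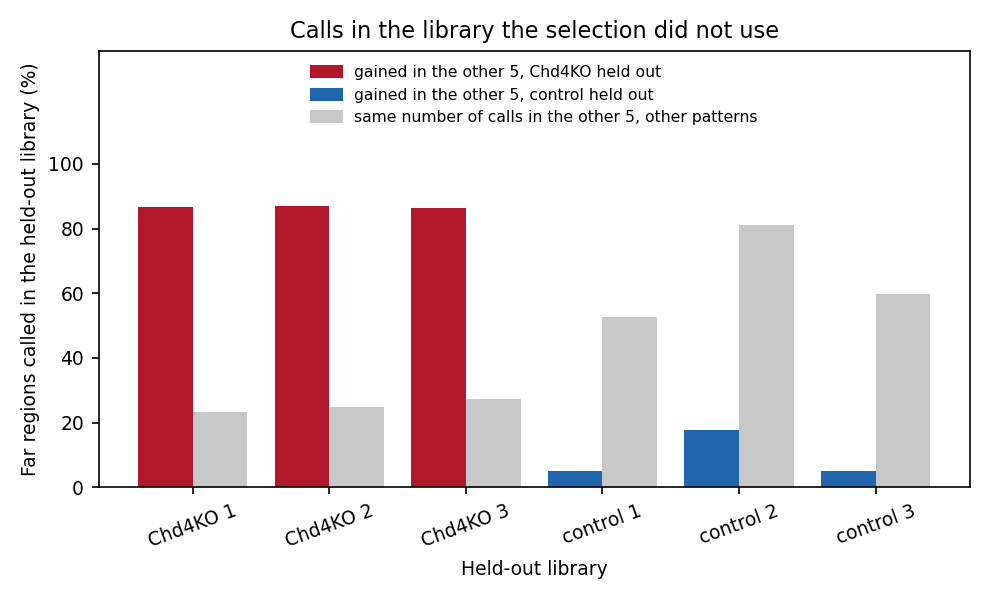
Percent of far regions called in the library whose call the rule left out (y axis), for each held-out library (x axis). Regions were joined from all the peak lists. Red and blue bars are regions gained by the other 5 libraries and grey bars are regions called by the same number of the other 5 in another pattern; red bars stand at 86.3% to 87.1%, blue ones at 4.92% to 17.8%.

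Members were narrow, single peaks whose position agreed between libraries. The median member was 392 bp wide, with a range of 206 to 1508 bp, and 3575 of 3595 (99.4%) had exactly 1 peak in each Chd4KO list. The 3 summits lay within a median of 22 bp of each other and within 50 bp in 2999 members (83.4%). Gained regions nearer to genes were alike. Those 1 bp to 50 kb from a gene had a median width of 381 bp and a median summit spread of 22 bp. Those in gene spans had 385 bp and 23 bp. The summits of far regions called in all 6 libraries lay a median of 18 bp apart in the Chd4KO lists, although those regions were wider, at a median of 733 bp.

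Peak strength is given as a percentile of the −log10 q within the library's own list, since depths are unknown. The members' medians were 34.0, 35.3 and 36.2 in Chd4KO libraries 1, 2 and 3, against 63.1, 63.3 and 65.3 for far regions called in all 6. Median fold enrichments were 6.56, 6.78 and 6.15 for members, against 13.0, 13.3 and 12.1. Gained regions 1 bp to 50 kb from a gene had percentile medians of 37.7, 38.8 and 34.4, and gained regions in gene spans had 34.9, 35.2 and 30.9. In libraries 1 and 2 the members thus ranked a little below gained regions 1 bp to 50 kb from a gene, and in library 3 a little above both other classes. The rank of a member was alike in the 3 libraries, with Spearman coefficients across members of 0.81 for libraries 1 and 2, 0.74 for 1 and 3 and 0.70 for 2 and 3, given as a description, since each list ranks the same selected regions.

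Few members were strong. A median percentile above 75 was found for 217 members (6.04%) and one below 25 for 1153 (32.1%). All 3 peaks were among the 50000 strongest of their lists in 416 members (11.6%), and none was in 2708 (75.3%). A −log10 q of at least 5 in all 3 Chd4KO libraries was reached by 3431 members (95.4%). Far lost regions, the reverse class, had percentile medians of 20.9, 30.1 and 21.9 in the lists of control libraries 1, 2 and 3, lower than those of members in the Chd4KO lists.

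**Figure D2:**
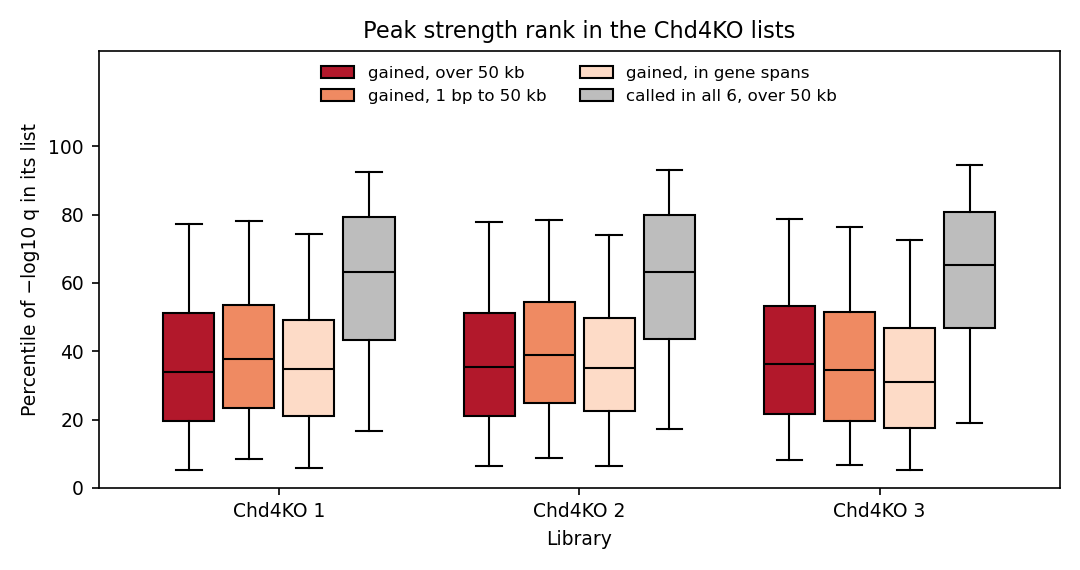
Percentile of −log10 q within the library's own list (y axis) in the 3 Chd4KO libraries (x axis) for 4 classes of regions. Boxes span the quartiles with the median as a line and whiskers run from the 5th to the 95th percentile of regions; the members' medians lie at 34.0 to 36.2 and those of far regions called in all 6 libraries at 63.1 to 65.3.

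The 10 strongest members lie in 9 intervals between genes, 55.3 to 620.8 kb from the nearest gene. The strongest was chr3:134339082-134339813, 76.9 kb from Cxxc4, an inhibitor of Wnt signalling, and its fold enrichment was 26.3, 23.7 and 25 in Chd4KO libraries 1, 2 and 3. It ranked at the percentiles 98.8, 98.4 and 99.7. The next, chr13:10732522-10733097, lies 371.5 kb from Chrm3, the muscarinic receptor through which acetylcholine raises insulin release, and 820.0 kb from Ryr2, a calcium release channel. Its fold enrichment was 31.2, 32.1 and 28.2. Both regions had no peak in any control library.

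A pair of the 10 lies in 1 interval, between the transcriptional coactivator gene Mn1 and the lens crystallin gene Cryba4. They are chr5:112031808-112032574, with fold enrichments of 18.02, 17.8 and 16.4, and chr5:111980684-111981167, with 27.8, 26.2 and 25.3. The others were chr1:112485830-112486617 between Dsel and the neuronal adhesion gene Cntnap5a, chr13:97308386-97308893 beside the neuronal gene Enc1, chr8:113125968-113126615 beside Cntnap4, chr17:65074732-65075359 beside Tmem232 and chr4:8965555-8966038 beside the remodeler gene Chd7. The last, chr16:95899539-95900200 between Ets2 and Psmg1, overlaps the lncRNA gene 1600002D24Rik. Fold enrichments of these 6 ranged from 24.4 to 36.0 in the Chd4KO libraries.

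The members farthest from a gene lay over 2 Mb away. Those at chr18:27997179-27997753 and chr18:28065704-28066088 are 2242.7 kb and 2199.5 kb from the nearest of Celf4 and Pik3c3. A member at chr14:90789334-90789709 lies between Pcdh20 and Pcdh9, and those at chr14:82210362-82210806 and chr14:82159114-82159914 lie between Olfm4 and Pcdh17. Of these 5, the last was the strongest, with fold enrichments of 29.3, 29.3 and 28.1, while the other 4 ranged from 5.02 to 20.3. The widest members were chr9:47384126-47385633 and chr9:47367207-47368656, of 1508 and 1450 bp beside the adhesion gene Cadm1, chr5:144456818-144458284 beside Nptx2, chr18:83484543-83485891 between Zfp516 and Tshz1, and chr5:46579773-46581088 between Lcorl and Slit2. Members just inside the distance limit, at 50034 bp from Cpeb4 and 50036 bp from Gzmb, ranked at the percentiles 36.4 to 58.5. Gained regions just outside, at 49951 bp from Fam222a and 49941 bp from Tnfrsf21, ranked at 5.15 to 45.8.

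The share of regions that were gained was lowest inside genes and nearly level outside them. It was 8.28% for regions overlapping a gene span, 12.8% up to 10 kb from a gene and 13.5% at 10 to 50 kb. Among far regions it was 13.6% at 50 to 100 kb (1137 members), 14.1% at 100 to 250 kb (1364 members), 13.4% at 250 to 500 kb (687 members) and 12.3% beyond 500 kb (407 members). The share called in all 6 libraries was highest inside genes, where the gained share was lowest, and both shares were lower beyond 250 kb than at 100 to 250 kb. The share called in all 6 was 50.9% inside genes, 44.4% at 50 to 100 kb and 34.7% beyond 500 kb. Gained regions outnumbered lost ones by 2.94 to 1 inside genes, 6.11 to 1 at 50 to 100 kb, 6.96 to 1 at 100 to 250 kb, 6.80 to 1 at 250 to 500 kb and 4.63 to 1 beyond 500 kb. The gained share of far regions was 1.64 times that within gene spans (interval 1.58 to 1.70 for counting error).

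Per length of DNA, all classes thinned out with distance. Members numbered 6.21 per Mb at 50 to 100 kb, 5.11 at 100 to 250 kb, 3.48 at 250 to 500 kb and 1.89 beyond 500 kb. Regions called in all 6 libraries numbered 20.3, 15.0, 9.89 and 5.31 per Mb over the same bands, so the number of them for each member was 3.26 in the nearest band and 2.81 in the farthest. The 4 bands gave percentile medians of 37.5, 34.0, 31.1 and 31.1 in Chd4KO library 1 and 38.1, 34.8, 33.9 and 28.1 in library 2. In library 3 the medians were 35.7, 34.8, 35.7 and 40.5, so the libraries differ in the direction of strength with distance.

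**Figure D3:**
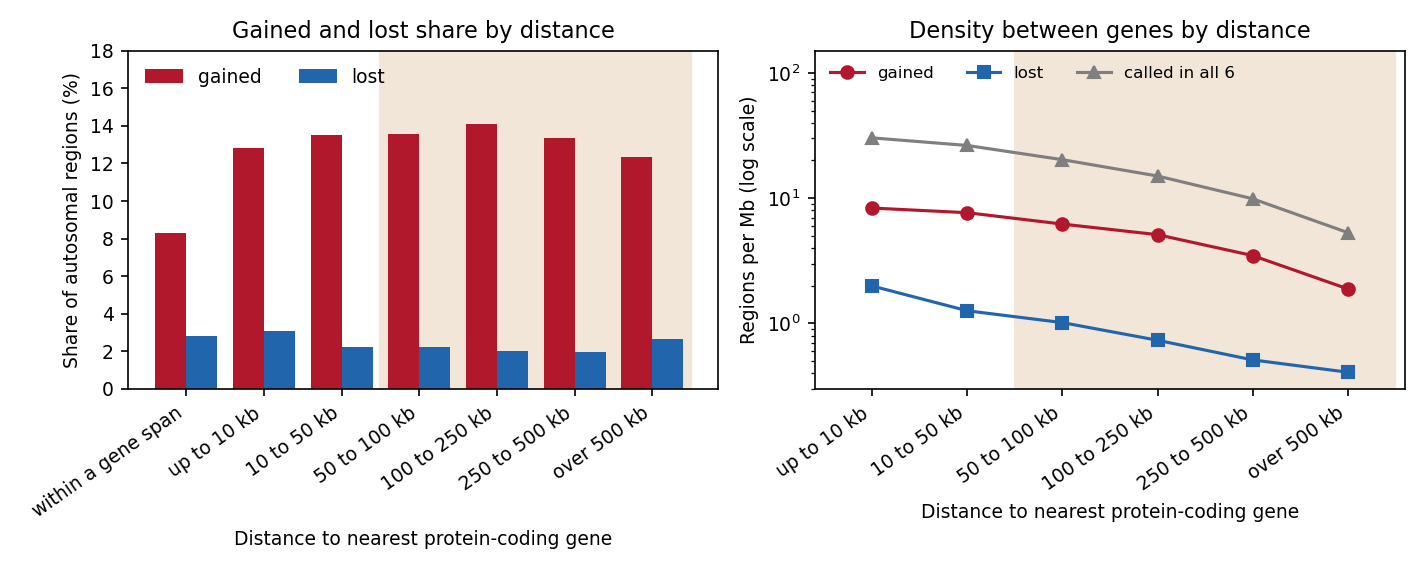
Left, percent of autosomal regions that are gained (red) or lost (blue) by distance to the nearest protein-coding gene; right, regions per Mb between genes on a log scale, with regions called in all 6 libraries in grey. Shading marks the bands beyond 50 kb, where the gained share is 12.3% to 14.1% and the density of gained regions is 6.21 per Mb in the nearest and 1.89 in the farthest band.

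The nearest region called in any control library lay a median of 9.68 kb away, and within 10 kb for 1830 members (50.9%). For 350 members (9.74%) it lay more than 50 kb away. Gained regions 1 bp to 50 kb from genes had a median of 4.99 kb and far regions called in all 6 libraries had one of 8.08 kb. The nearest other gained region lay a median of 48.5 kb from a member and 46.8 kb from a far region called in all 6 libraries. The nearest lost region lay a median of 326.1 kb from a member.

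Members were counted in the intervals between neighbouring protein-coding genes. Of 2495 intervals with sequence more than 50 kb from a gene, 862.9 Mb in all, 1249 (50.1%) held a member, 492 (19.7%) held at least 3 and 38 held at least 10. Those 38 held 463 members. On average there were 4.16 members per Mb, with 12.5 regions per Mb called in all 6 libraries and 0.654 lost regions per Mb.

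The interval between Mn1 and Cryba4 on chromosome 5 held the most, with 25 members among its 78 far regions (32.1%), or 36.3 per Mb. It had 22 regions called in all 6 libraries and 2 lost ones, and its members ranked at a median percentile of 60.04, higher than in the other 11 intervals named here. Between Celf4, an RNA-binding protein gene of neurons, and Pik3c3, a lipid kinase gene, 19 of 120 far regions were members, in an interval of 4511.1 kb. The interval between Rps24, a ribosomal protein gene, and the coactivator gene Zmiz1 held 17 of 92, and 4 of them overlap the lncRNA gene Zmiz1os1.

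Between the kinase gene Camk1g and Plxna2, a receptor for guidance semaphorins, 16 of 85 far regions were members. Matn1, a cartilage matrix gene, and Ptpru, a receptor phosphatase gene, bounded 15 of 94, with no lost region in the interval. Rtl1 and Dio3, imprinted genes expressed from the paternal chromosome, bounded 14 of 51 (27.5%), or 24.4 per Mb, of which 3 overlap the lncRNA gene Gm34719. That interval had 13 regions called in all 6 libraries and no lost region.

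The remaining intervals of the 12 were Klhl29 to Apob with 14 of 75, Cdh26 to 4930591A17Rik with 13 of 56, D3Ertd751e to the protocadherin gene Pcdh10 with 13 of 72 and Stim2 to Pcdh7 with 13 of 70. Saraf to Dusp4 had 12 of 51 and Enc1 to Arhgef28 had 12 of 59. One member of the last interval overlaps the lncRNA gene Lncenc1. Per Mb of far sequence, Celf4 to Pik3c3 had 4.31 members, D3Ertd751e to Pcdh10 3.74 and Stim2 to Pcdh7 3.72. These 3 long intervals lie near or below the average of 4.16, and the rest of the 12 had 5.60 to 36.3. Gained regions made up 15.8% to 32.1% of far regions in the 12 intervals, against 13.6% of all far regions; the intervals were chosen for their number of members, so a high share is part of the choice.

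**Figure D4:**
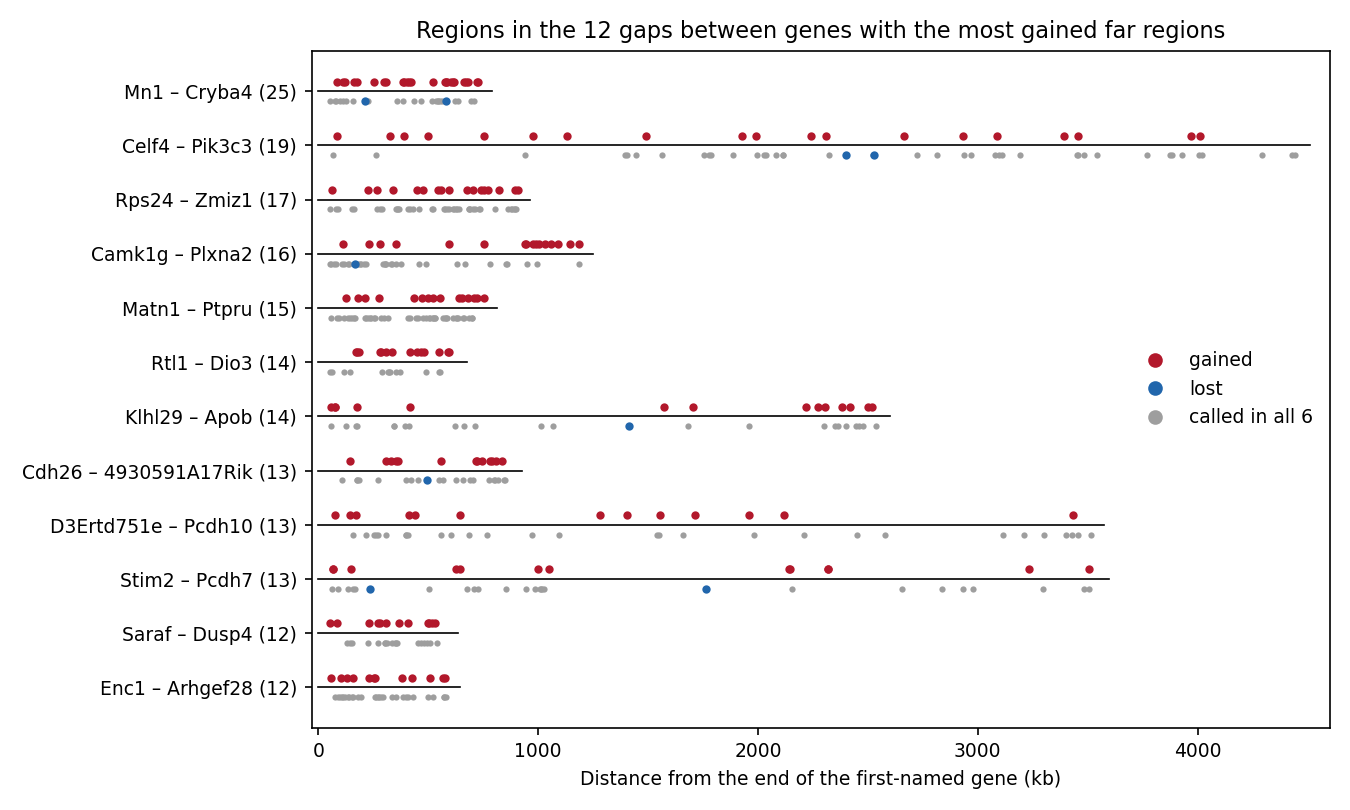
Positions of gained (red), lost (blue) and commonly called (grey) far regions in the 12 intervals with the most gained far regions, as the distance in kb from the end of the first-named gene; the black line is the whole interval and the number of members is in brackets. Members of Mn1 to Cryba4 run from 84.9 to 725.6 kb, while the 19 of Celf4 to Pik3c3 are spread from 86.4 to 4010.6 kb.

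Among genes of insulin secretion, Ins1 had the most members beside it. Listed genes were named only if an interval beside them held at least 3 members, and 13.6% of all far regions were gained. Mice carry a second insulin gene, Ins1, on chromosome 19 besides Ins2. Its neighbouring intervals held 13 members among 61 far regions, with 12 regions called in all 6 libraries and no lost region. Of these, 11 lie among the 34 far regions between Ins1 and Xpnpep1, where 6 regions were called in all 6 libraries, and 2 lie towards Sorcs1. The nearest, chr19:52316144-52316594, is 51.1 kb from Ins1 and had fold enrichments of 7.30, 7.81 and 9.54 in Chd4KO libraries 1, 2 and 3. The strongest, chr19:52606750-52607466, is 341.7 kb from Ins1 and had 35.5, 35.02 and 34.0.

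Between those, chr19:52592992-52593736 is 328.0 kb from Ins1 and had 19.5, 20.3 and 22.3, and chr19:52851854-52852300, nearer to Xpnpep1, had 14.0, 18.1 and 16.5. The 9 others of the 13 had at most 8.69 in any Chd4KO library. Chrm3 had 7 members of 40 far regions beside it, all between it and Ryr2, and 6 of them were weaker than 13.0 in each library. Galr1, a receptor for galanin, which lowers insulin release, had 10 of 51, and Adcyap1, the gene of the neuropeptide PACAP, had 6 of 39. The counts were 5 of 50 for Adra2a, the adrenergic receptor that restrains insulin release, 4 of 29 for Scg2, a secretory granule protein gene, and 3 of 15 for Syt13, a synaptotagmin gene. Beside the whole list of insulin secretion genes, 12.2% of far regions were gained, against 13.6% of all far regions.

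Among islet transcription factors, Nr5a2 had the most members beside it. Nr5a2, which acts in the pancreas and liver, had 9 of 48 far regions, 4 of them 79.6 to 102.7 kb away on the side of Zfp281. The strongest of those, chr1:136754282-136754645, had fold enrichments of 15.2, 13.4 and 10.6. Sox9, a factor of pancreatic progenitors and ducts, had 8 of 53, Isl1, an islet and motor neuron factor, had 7 of 77, and Foxo1, a target of insulin signalling, had 6 of 68. Zbtb20, a zinc finger repressor, had 5 of 16, Foxa2, a pioneer factor of endoderm, 4 of 44, and Prox1, a factor of the developing pancreas, 4 of 31. Foxa2's members had fold enrichments of 3.39 to 9.54, and the 25 regions called in all 6 libraries beside it outnumbered them. Beside the whole list of islet factors, 10.5% of far regions were gained, below the 13.6% of all far regions.

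Of the secreted signals, Ntf3, a neurotrophin gene, stood beside an interval in which nearly every far region was gained. Between Ntf3 and the potassium channel gene Kcna5, 5 of 6 far regions were members and none was called in all 6 libraries. Of all far regions, 13.6% were gained. Listed genes were named only if an interval beside them held at least 3 members, so a high share in a small interval is part of the choice. Their fold enrichments ran from 3.39 to 9.84 in the Chd4KO libraries. Shh, which is kept silent in the pancreas during development, had 3 members of 16 far regions towards Rnf32, with only 1 region called in all 6 libraries. The strongest of the 3, chr5:28837888-28838826, is 370.8 kb from Shh and had 20.3, 17.2 and 14.2. Of the TGF-β family, Bmp2 had 9 of 53, Inhbb 5 of 16, Gdf10 3 of 10, Tgfb2 3 of 10 and Inhba 3 of 28. The growth factor gene Fgf9 had 7 of 42 and the Notch ligand gene Jag1 5 of 28.

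Developmental transcription factors and neuronal adhesion genes bound many of the long intervals. Among the factors, Sox11 had 12 members of 73 far regions, Klf4 11 of 67, Nfib 11 of 36, Sox5 11 of 46 and Zfp521 11 of 51. Bcl11a had 10 of 79, Meis1 10 of 45 and Sall3, which bounds the same interval as Galr1, 10 of 51. Of the cell adhesion and guidance genes, Cdh8 had 20 of 146, Pcdh7 17 of 113, Unc5d 16 of 96, Adgrl2 15 of 111, Pcdh10 15 of 83 and Cdh11 14 of 103. Cntnap4, which has one of the strongest members beside it, had 12 of 45. Ncam2 had 13 of 78, Epha4 12 of 65, Pcdh17 12 of 96 and Tenm4 12 of 73. Csmd1 had 11 of 41, Pcdh18 11 of 84, Pcdh9 11 of 111 and Slit2 11 of 82. Adgrl3 had 10 of 95, Cntn5 10 of 51, Ctnna2 10 of 53 and Flrt2 10 of 94. Of all far regions 13.6% were gained, and these genes were named for their number of members. Flanking intervals are shared, so 1 member counts for the gene on either side.

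As lists, these genes had members beside them more often than other genes with a far interval, and their intervals were longer. Of 4103 such genes, 2205 (53.7%) had a member and 977 (23.8%) had 3 or more, in a median of 0.145 Mb of far sequence. The counts were 17 of 22 islet factors with a member and 8 with 3 or more, 16 of 23 and 8 for insulin secretion, and 34 of 43 and 10 for secreted signals. Developmental factors had 103 of 126 and 59, and neuronal adhesion and guidance genes 76 of 86 and 59. Median far sequence was 0.457, 0.364, 0.289, 0.486 and 2.05 Mb in these 5 lists. Per Mb, the lists had 4.89, 3.89, 4.84, 5.17 and 2.41 members, against 4.16 beside all such genes. Of far regions beside the lists, 10.5%, 12.2%, 14.6%, 14.8% and 13.1% were gained, against 13.6%. In these shares the lists lie near the background, and islet factors lie below it.

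**Figure D5:**
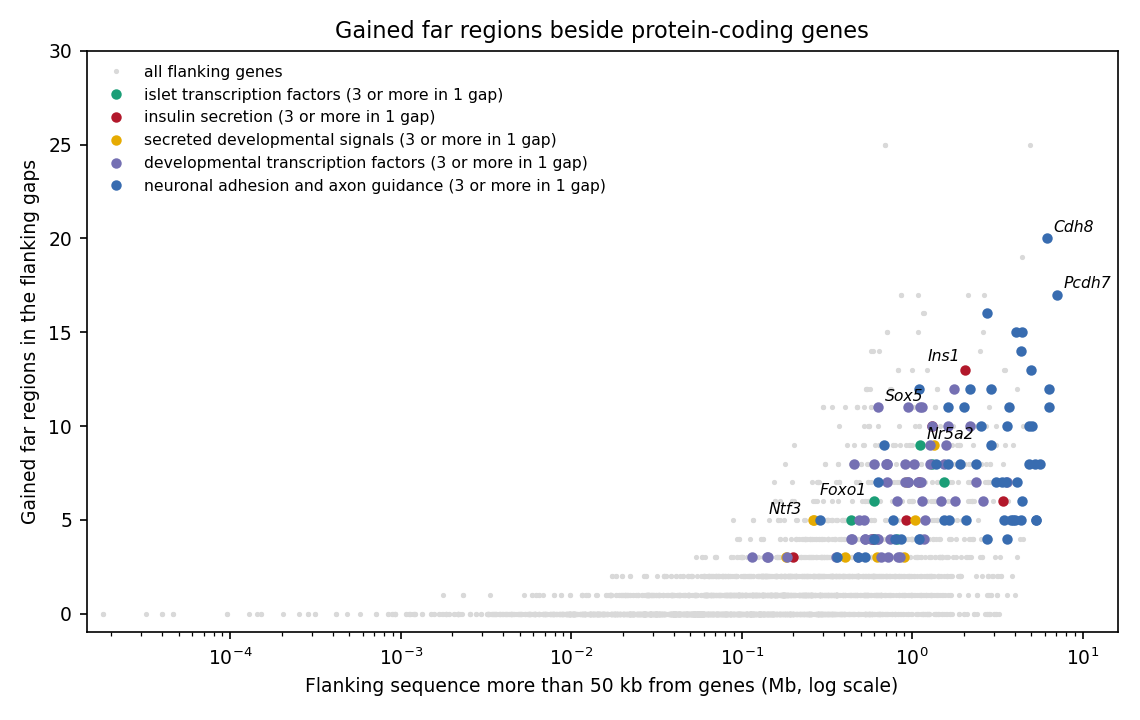
Number of gained far regions in the intervals on both sides of a protein-coding gene (y axis) against the length of sequence more than 50 kb from genes in them (x axis, Mb, log scale). Grey points are all 4103 genes with such an interval and coloured points are listed genes with at least 3 members in 1 interval; Ins1 has 13 members in 2.05 Mb and Cdh8 has 20 in 6.15 Mb.

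LncRNA spans held 705 members (19.6%), near the 18.8% of all far regions, against 20.8% of far regions called in all 6 libraries, 17.5% of far lost regions and 16.1% of far regions called in 3 libraries of mixed genotype. The start windows of lncRNA genes were touched by 56 members (1.56%), against 278 far regions called in all 6 libraries (2.57%), 0.876% of far lost regions and 1.65% of all far regions. Members touched 584 lncRNA genes, of which 30 held at least 3. A930011G23Rik on chromosome 5 held 7 among its 41 far regions, and 2610027F03Rik 5 among 8, Gm31508 5 among 9, Gm36743 5 among 15 and Gm32647 5 among 28. These 5 were named because they held the most members, so a high share is part of the choice. Of all far regions, 13.6% were gained. No gene of any kind lay within 50 kb of 1127 members (31.3%), a share close to the 31.6% of all far regions.

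Far regions that are not members were compared between the groups at the 10816 positions called in all 6 libraries, which the choice of members did not use. The mean covered length per region was 618, 627 and 638 bp in Chd4KO libraries 1, 2 and 3, against 576, 620 and 582 bp in control libraries 1, 2 and 3. Means were 627.7 ± 9.9 bp in Chd4KO and 592.6 ± 23.9 bp in control libraries (SD, n = 3 each), a difference of 35.2 bp, and the two-sided exact permutation test gave p = 0.2. Control library 2 lay between Chd4KO libraries 1 and 2, so the groups overlapped. The median percentile of −log10 q was 63.1, 63.3 and 65.3 in the Chd4KO lists against 53.9, 60.9 and 56.0 in the control lists. Here the groups did not overlap, with means of 63.9 ± 1.2 and 56.9 ± 3.6 (SD, n = 3 each), a difference of 6.96 points, and an exact permutation p = 0.1, the smallest that 3 libraries against 3 can give. The percentile is a rank within the whole list, and the Chd4KO lists also hold the members' peaks. This measure is therefore not independent of the calls that chose the members. The Chd4KO lists are longer, and the part of list length and of gained peaks in this difference was not tested. With the 50000 strongest peaks of each list, where 3943 far regions were called in all 6 libraries, the difference was 0.945 points (exact permutation p = 0.7) and that of covered length 7.5999 bp (exact permutation p = 0.4).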

How the data were processed

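The 6 deposited peak lists were used, 1 per library, on mm10 per the submitters' processing notes; the file names point to MACS2 on shifted cutting sites, while its version, the aligner and the filters are stated in none of the sources used here. The authors' lists give per peak a whole-number score, a fold enrichment (ratio), −log10 p and −log10 q. Per the deposited values, every q is below 0.05. These values are the authors' and were used only within a list.

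Peaks were merged and measured against 20665 autosomal protein-coding RefSeq genes of GRCm38.p6 in Python 3.11.15 (numpy 2.4.6, pandas 2.3.3, scipy 1.17.1), with a step tested on simulated data. The members, gene lists and motifs were chosen with earlier results of these data known. Named regions were the 10 strongest, the 5 farthest and the 5 widest. Named genes flank the 12 intervals with most members or, if listed, an interval with at least 3; the developmental and neuronal lists are named from 10 members on. Motifs, planned for region sequences, were read in lncRNA start windows, as no genome was used. Repeats and CCAAT were chosen after their letters were seen. One marker gene is not reported here. Alternatives changed the distance, gene set, overlap, joining, peak threshold and libraries.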

Additional observations from a re-analysis of the deposited data

How the results depend on the processing

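The number of members was 3595 and lay between 2458 (100 kb in place of 50 kb) and 4772 (25 kb) under the other distances, a 50% overlap, joining by summits and a −log10 q of at least 5. It was 1127 with the distance taken to any gene and 1334 with the 50000 strongest peaks of each list, of which 415 begin at the same base as a member. The gained share, 13.6%, was 15.7% with 50% overlap, 14.5% with a −log10 q of at least 5 and 12.9% with the 50000 strongest peaks. The ratio of gained to lost far regions, 6.30, was 5.39 with any gene, 5.58 with summits and 2.36 with the 50000 strongest peaks. The gained share relative to gene spans, 1.64 times, was 1.53, 1.57 and 1.89 under those 3. The cause was not tested. Leaving out 1 library at a time gave 3782 to 4373 members, shares of 14.4% to 17.1%, ratios of 4.14 (without control library 1) to 6.84 and 1.52 to 1.70 times the share within gene spans; fewer libraries make the rule easier to meet. At far regions called in all 6 libraries, no alternative could give a p below 0.1, so these tests say nothing of stability. Without 1 library the differences were 28.4 to 49.96 bp (exact permutation p of 0.1 to 0.3) and 6.11 to 9.01 points (p of 0.1 to 0.2). The replicate block, which pairs equal numbers, left the differences at 35.2 bp and 6.96 points. Each had an exact permutation p = 0.25, the smallest the block allows. Deviations of same-numbered libraries in covered length correlated at 0.04, 0.08 and -0.04. These values cover 1 measure at regions called in all 6 libraries, so they cannot decide whether the numbers pair the samples. No label says so. The distance to any gene, the 50% overlap and joining by summits were not run for these tests. With words of 8 or 12 bases, chosen after seeing the data, 23.0% and 11.5% of members' lncRNA windows held a repeat, against 6.44% and 1.84% under far regions called in all 6 libraries. Depth is unknown, so a region missing from a list may be open below its threshold.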

Other observations

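Members were found on all 19 autosomes. Chromosome 8 had the highest share of far regions gained, 16.7% (257 members), and the most members per Mb of far sequence, 5.39, while chromosome 14 had the lowest of both, 11.6% (165 members) and 3.22 per Mb. Chromosome 19, which carries Ins1, had 73 members and 5.31 per Mb. Regions called in all 6 libraries ranged over the chromosomes between 10.8 and 15.7 per Mb, with the highest value on chromosome 13.

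Some intervals with many far regions held no member. Between Cd83 and Jarid2, the gene of a cofactor of the Polycomb complex, there were 42 far regions, 21 of them called in all 6 libraries, and none was gained or lost. Between Stxbp6 and the neuronal splicing factor gene Nova1 there were 30 far regions with 3 lost and none gained, and beside Lingo2 25 with 2 lost and none gained. These intervals hold 0.828, 1.52 and 2.40 Mb of far sequence in this order, so the later counts come from longer stretches.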
